A study of Rattus norvegicus with 12 samples.

Results

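The genes described here encode the protein subunits of the cytosolic ribosome. They were taken from the array annotation by name, as every probe set with exactly 1 gene symbol beginning Rpl or Rps and followed by a number, together with Rplp0, Rplp1, Rplp2, Rpsa and Fau where present. Ribosomal S6 kinases and pseudogene names were left out. This gave 50 probe sets for 44 genes, of 10411 genes that carry a probe set of their own, and each gene was represented by its brightest probe set. Of these 44 genes, 28 encode proteins of the large (60S) subunit, 12 encode proteins of the small (40S) subunit, and 4 are paralogs (Rpl3l, Rpl7l1, Rps27l and Rps4y2).

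RNA came from 2 rat liver epithelial cell lines, each grown with or without arginine. Normal cells were WB-F344, a diploid line that had been isolated from adult liver of a male Fischer-344 rat. Tumor cells were GP7TB, a clonal line derived from WB-F344 after repeated treatment with the mutagen N-methyl-N-Nitro-N-nitrosoguanidine. For 18 hours, all cells were held in Chee's Essential Medium with 5% fetal bovine serum. It contained L-arginine HCl at 0.168 g/l (arginine-sufficient) or none (arginine-deficient). The serum was present in every group. There were 3 independent experiments for each cell line and 1 RAE230A array for each culture, giving 12 arrays in 4 groups of 3. With 1 normal and 1 tumor line, a difference between tumor and normal cells is a difference between these lines.

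A ribosome is built from ribosomal RNA and a set of proteins that are made in nearly equal amounts, so their mRNAs are among the most abundant in a growing cell. Many of these mRNAs begin with a C followed by a run of pyrimidines, the 5′ terminal oligopyrimidine (TOP) tract, through which mTORC1 signaling controls their translation when amino acids are scarce. That control acts on ribosome loading, which an array of total RNA does not measure. Several ribosomal proteins also act outside the ribosome. Rpl5 and Rpl11, for example, bind and inhibit Mdm2 when ribosome assembly is disturbed.

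The starts of some of the genes named below are shown first, because the TOP tract is the sequence feature this family is known for and was not used to choose the members. Each line gives 14 bases before the annotated start and 16 bases from the start onward, on the coding strand, 5′ to 3′, from RefSeq on rat build GRCr8. Capitals mark a C at the annotated start and the run of at least 4 pyrimidines that directly follows it. For this marking the bases before the start were not examined, so a run can reach further back, as in Rpl22. The first 4 genes have such a marked run, and Rpl11 and Rpl7l1 do not. Rplp0 passed no test below. Rps6, Rps27l, Rpl12 and Rpl13a, which were called in a comparison below, have no such run at their annotated starts and are not shown.
Rpl22 (chr5:168117947-168117976, plus strand): tagtgcgcccccctCCCTTTCTgcctcctc
Rpl37a (chr9:81748077-81748106, plus strand): catgcccgttgcgtCTCTTCCTCTTCgggc
Rps3a (chr2:173827027-173827056, minus strand): agttgtacttccgcCCTTTTggctctcaga
Rplp0 (chr12:46718375-46718404, minus strand): accgcaccgcacttCTCTCgccaggcgtcc
Rpl11 (chr5:153560787-153560816, minus strand): gggacttgaagcttgtttggtgctggggag
Rpl7l1 (chr9:21695704-21695733, plus strand): gctgcagatgcattgtgggaagcctttaac

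A promoter sequence was available for 39 of the 44 genes. A C exactly at the annotated start, followed by the pyrimidine run, was found in 11 of these 39 (28.2%), against 2.63% of 33469 rat promoters. This exact count did not ask whether the run began before the start. When the C was allowed to lie up to 10 bases on either side of the start, the shares were 69.2% and 28.9%. The letters CGGAAG, the core of an ETS factor site, occurred on either strand of the 300-base promoter in 46.2% of the members and 16.6% of all promoters. For the TATA letters TATAAA, the shares were 15.4% and 14.2%. For CACGTG, the E-box that Myc can bind, they were 7.69% and 6.42%, and for AAGATGGC, a YY1 site, they were 10.3% and 3.17%. An annotated start can lie some bases from the real one, and a match of letters is not a bound site.

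Ribosomal protein transcripts were among the brightest on every array. Between 30 and 35 of the 44 chosen probe sets lay in the highest 1% of signals of an array, and together the 44 carried 4.38% to 5.62% of the summed signal. The mean signal over the 12 arrays ran from 553 (Rpl39) to 21450 (Rps23) among the 41 members that passed the filter on low signals, which asks for a signal in the highest 54% of its array on at least 3 arrays. The other 3 stayed out of the tests. Rpl30 lay between 62.8 and 148 on the 12 arrays. Rpl3l, a muscle paralog of Rpl3, lay between 9.50 and 73.3, and Rps4y2 lay between 6.70 and 88.6. Replicates of the 41 members varied little. Their residual standard deviation within groups had a median of 0.21 on the log2 scale, against 0.30 over the 9745 probe sets tested. Those probe sets were not matched to the members in brightness, and the part of brightness in this was not tested.

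The arrays as a whole give the following frame. Array medians lay between 174 and 227 signal units. The epithelial keratin Krt8 was above the filter's threshold on all 12 arrays, but Krt18, Krt19, Cdh1 and Epcam were above it on none, and the hepatocyte genes Alb, Ttr and Ahsg were above it on 2 arrays at most and Cyp2e1 on 3. The biliary keratin Krt7 was above it on all 12, with a mean signal of 5845 in normal and 291 in tumor cells with arginine (log2 difference −4.33, adjusted p = 1.29e-07). Only 2 genes of the biliary and oval cell list were tested, and the other one went the opposite way. Its log2 difference was 1.56 with arginine, not called, and 2.67 without arginine, where it was called higher in tumor cells. All 6 tested mesenchymal genes were lower in tumor than in normal cells with arginine (median log2 difference −1.61), with Col1a2 at −8.31. Krt8, the only tested epithelial gene, differed by 0.56 with arginine and 1.05 without. Cyp2e1, the only tested hepatocyte gene, differed by 0.46 and 0.87. Both were called higher in tumor cells without arginine only. The part of these marker genes in the differences between the cell lines was not tested. No gene of the leukocyte list and none of the endothelial list passed the filter. Of 12 tested genes of the amino acid response, the transcripts induced through Atf4 when an amino acid is lacking, 4 rose in normal and 10 in tumor cells without arginine. Tumor arrays were all scanned on a single day and normal arrays on 3 other days, so scan day and cell line cannot be told apart. The same holds for chip lot, since no lot was used for both lines. In tumor experiments 1 and 2 and in normal experiment 2, the arrays with and without arginine were of different lots. Per the run records, the arrays of tumor experiment 2 were made without trypsin and those of experiments 1 and 3 with it.

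The comparison of tumor with normal cells asked which transcripts the transformed line holds at another level. With arginine, 4 ribosomal protein genes were higher in tumor cells (Rpl22, Rpl7l1, Rpl11 and Rpl7) and 3 were lower (Rps27l, Rpl37a and Rps3a), out of 41 tested. The background was 16.4% of all tested probe sets higher and 18.1% lower. The remaining 34 members lay between −0.37 and 0.27 on the log2 scale. The median of the 41 members was −0.12, and 32 of them lay below 0. The median of all tested probe sets was 0.00. This lean turned with the scaling, since the members' median was −0.05 (24 below 0) after quantile normalization and 0.0034 (22 above 0) after median centring. Without arginine, 5 were higher (the same 4 genes and Rps6) and 2 were lower (Rpl37a and Rps27l), against 19.5% and 21.2% of all probe sets. The members' median was then 0.04, −0.0087 after quantile normalization and 0.15 after median centring.

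**Figure D1:**
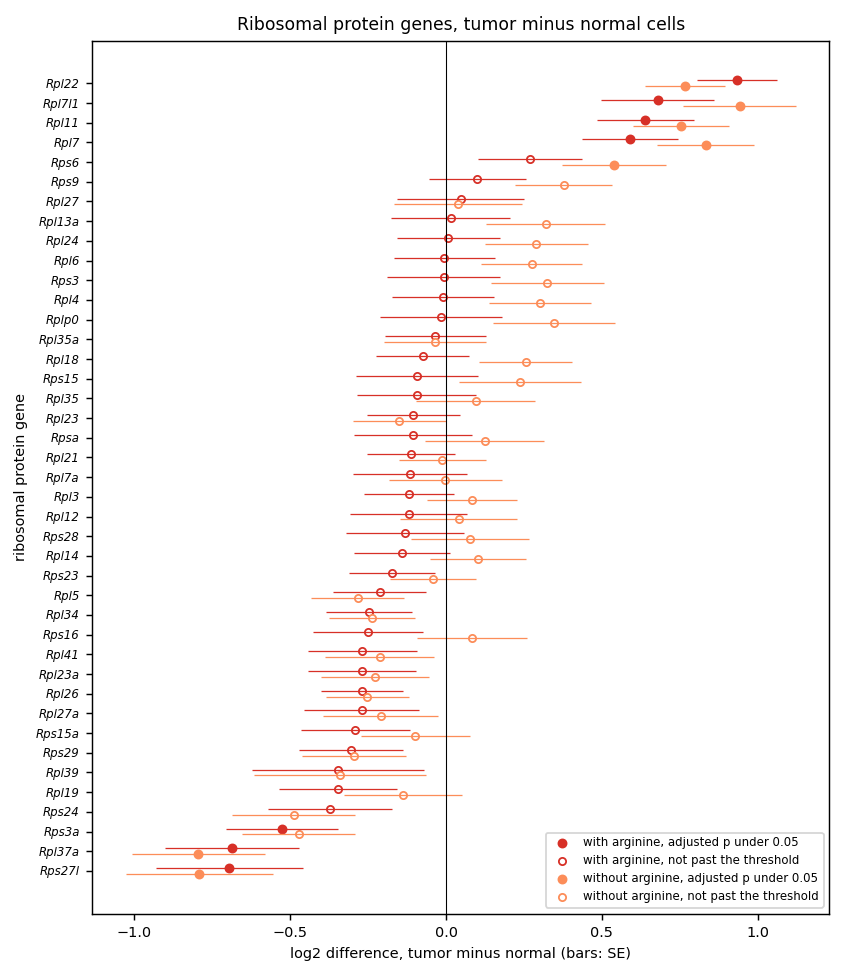
Log2 difference between tumor and normal cells (x axis, bars give the standard error, n = 3 arrays per group) for each of the 41 tested ribosomal protein genes (y axis), with arginine (red) and without (orange). Filled points passed the adjusted threshold; 4 genes lie apart on the right and 3 on the left, and most of the others lie within 0.4 of 0.

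Rpl22, a 60S protein that also binds RNA outside the ribosome and whose loss is found in some cancers, differed most firmly. With arginine its signals were 6598, 6474 and 6456 in normal cells, and the tumor cells had 12658, 12732 and 11896. Without arginine they were 8341, 7059 and 6936 against 13050, 11576 and 13332. All 6 tumor arrays lay above all 6 normal arrays. The log2 difference was 0.93 ± 0.13 (SE, adjusted p = 9.93e-05) with arginine and 0.77 ± 0.13 (adjusted p = 0.00039) without, by limma. Leaving out any single array kept it past the threshold, at 0.91 to 0.96 with arginine.

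Rpl11 and Rpl5 form a particle with 5S ribosomal RNA before they join the 60S subunit, and of this pair Rpl11 passed the test. Rpl11 signals with arginine were 7628, 8437 and 6847 in normal cells, and the tumor cells had 11162, 10619 and 14069. Without arginine they were 6226, 7151 and 6597 against 11135, 9888 and 12786. The cell lines did not overlap, and the log2 difference was 0.64 ± 0.16 (adjusted p = 0.00602) with arginine and 0.75 ± 0.16 (adjusted p = 0.00179) without. For Rpl5 the signals with arginine were 12967, 13971 and 12462 in normal cells, and the tumor cells had 11887, 10815 and 11285. In arginine-deficient medium they were 15986, 15777 and 12570 against 14187, 10323 and 12009, and the groups overlapped. Its log2 difference was −0.21 ± 0.15 (adjusted p = 0.299), which did not pass, and −0.28 ± 0.15 (adjusted p = 0.147) without arginine. Whether the differences of these 2 genes differ from each other was not tested.

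Rpl7, another 60S protein, had signals of 7592, 9480 and 8591 in normal and 12555, 11698 and 14394 in tumor cells with arginine. In arginine-deficient medium these were 7587, 9239 and 6964 against 13234, 13179 and 15817. The tumor signals were all higher, with a log2 difference of 0.59 ± 0.15 (adjusted p = 0.00936), and of 0.83 ± 0.15 (adjusted p = 0.000852) without arginine. Without normal experiment 1 the difference with arginine was 0.51 (adjusted p = 0.052), no longer past the threshold. Rpl7l1, its paralog, is placed with the factors of ribosome assembly. It had signals of 1280, 1503 and 1305 in normal and 1764, 2034 and 2869 in tumor cells with arginine, and 1474, 1621 and 1761 against 2925, 3258 and 3130 without. No tumor array fell below the normal arrays, and the log2 difference was 0.68 ± 0.18 (adjusted p = 0.0103) with arginine and 0.94 ± 0.18 (adjusted p = 0.00109) without. Without tumor experiment 3 the difference with arginine was 0.48 (adjusted p = 0.0689), no longer past the threshold.

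Rps6, the 40S protein phosphorylated by S6 kinase downstream of mTORC1, passed the test only without arginine. Its signals were 14020, 16497 and 11629 in normal and 17688, 19078 and 24414 in tumor cells, which did not overlap (log2 difference 0.54 ± 0.17, adjusted p = 0.0204). With arginine they were 14302, 15918 and 15045 against 17235, 16436 and 21193. Those groups did not overlap either, but the difference of 0.27 ± 0.17 did not pass (adjusted p = 0.237). The change between the media, 0.27 ± 0.24, did not pass the test (adjusted p = 0.969). Without tumor experiment 3, the difference without arginine was 0.40 (adjusted p = 0.08), and without normal experiment 3 it was 0.41 (adjusted p = 0.108). The call was also lost without tumor experiment 2 (adjusted p = 0.0548), without normal experiment 1 (adjusted p = 0.0587) and with no filter on low signals (adjusted p = 0.0585). After quantile normalization Rps6 passed in both media.

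The 3 lower genes were less firmly called. Rpl37a, a small zinc-binding 60S protein, had signals of 16772, 13918 and 18514 in normal and 9677, 8037 and 13300 in tumor cells with arginine. Without arginine they were 21060, 22883 and 16789 against 8911, 14020 and 12403. The tumor arrays lay below the normal arrays of the same medium. The log2 difference was −0.69 ± 0.21 (adjusted p = 0.0239) with arginine and −0.79 ± 0.21 (adjusted p = 0.00959) without. Rpl37a lost its call with arginine when any of 4 arrays was left out, with adjusted p up to 0.113, but none was lost without arginine.

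Rps27l, a paralog of Rps27 known as a p53 target, had signals of 971, 1332 and 965 in normal and 556, 788 and 671 in tumor cells with arginine. Without arginine the signals were 1033, 1260 and 721 against 533, 483 and 703. The tumor arrays lay below the normal arrays of the same medium in each case. The log2 difference was −0.70 ± 0.24 (adjusted p = 0.0354) and −0.79 ± 0.24 (adjusted p = 0.0162). Leaving out 1 array gave adjusted p up to 0.130 with arginine and 0.0715 without.

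Rps3a, a 40S protein near the messenger RNA exit, had signals of 19177, 17756 and 15704 in normal and 14089, 11469 and 11064 in tumor cells with arginine. Without arginine they were 24926, 20751 and 15026 against 15621, 12967 and 14336, and the lowest normal array overlapped the tumor arrays. The log2 difference was −0.53 ± 0.18 (adjusted p = 0.0369) and −0.47 ± 0.18 (adjusted p = 0.0505). Rps3a lost its call with arginine without some single arrays, with adjusted p up to 0.121. The call was also lost with no filter on low signals (adjusted p = 0.0879), without the intensity trend (0.0652) and in the plain linear model (0.0682). Only Rps27l and Rpl37a kept a lower call after quantile normalization with arginine, and after median centring none of the 3 was called with arginine, where the split was 4 higher and 0 lower. Of all 9745 probe sets, that fit called 1930 higher and 1464 lower with arginine. Median centring moved the median of all probe sets from 0.00 to 0.12 with arginine and from 0.01 to 0.12 without.

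**Figure D2:**
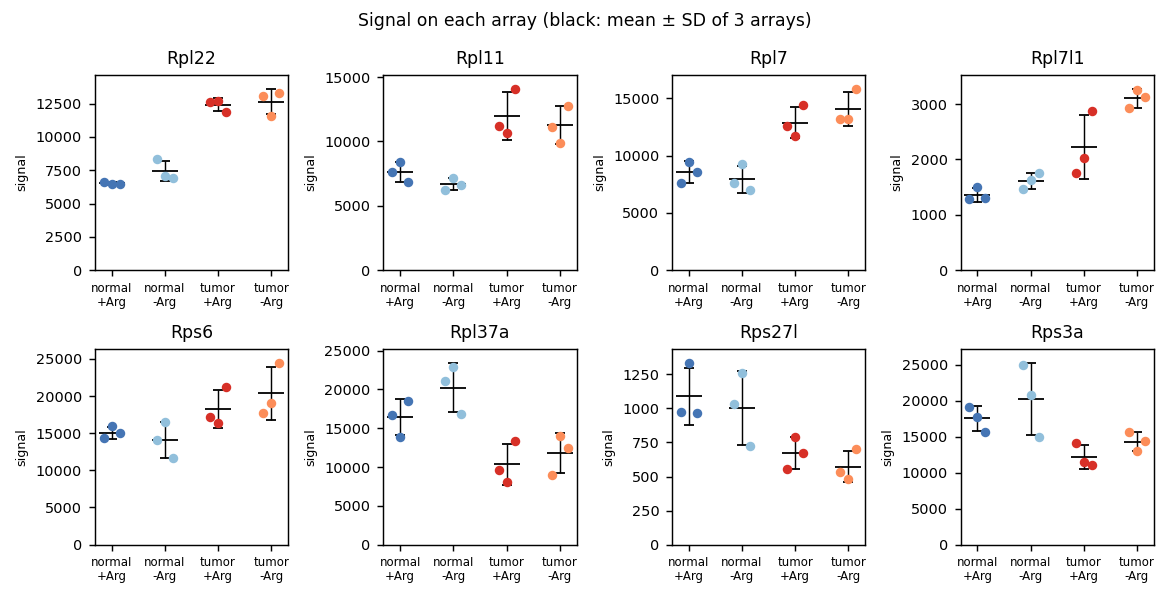
Signal on each array (y axis, linear scale from 0) in the 4 groups (x axis, Arg stands for arginine) for the 8 members that passed the test between the cell lines in either medium. Points are arrays, and the black line and bar are the mean and SD of 3 arrays. Rpl22, Rpl11, Rpl7 and Rpl7l1 are higher in tumor cells in both media.

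By subunit and with arginine, 3 of 27 tested 60S genes were higher and 1 was lower (median −0.11), and 0 of 12 tested 40S genes were higher and 1 was lower (median −0.15). The 2 tested paralogs went opposite ways. Rplp0, the base of the ribosomal stalk and often used as a reference gene, had a log2 difference of −0.01 ± 0.20 (adjusted p = 0.963) with arginine and 0.35 ± 0.20 (adjusted p = 0.175) without. For Rpsa, the 40S protein known as the laminin receptor precursor, these were −0.11 ± 0.19 (adjusted p = 0.703) and 0.12 ± 0.19 (adjusted p = 0.636). With arginine, tumor arrays lay entirely above normal arrays for 5 members and entirely below for 10, against 24.5% and 24.7% of all tested probe sets. Without arginine these were 7 and 2 members, against 24.5% and 24.1%. Of the 11 members with a TOP tract at the annotated start, 1 was higher and 2 were lower in tumor cells with arginine. Of 26 tested members with another start, 2 were higher and 1 was lower. Another start means only that no run lies exactly at the annotated base, and some of these members have one within 10 bases.

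Probe sets of the same gene did not always agree. Rpl7 has a second probe set that is far dimmer, with signals of 159, 258 and 214 in normal and 267, 190 and 223 in tumor cells with arginine, which overlap. Its log2 difference was 0.12 ± 0.26 (adjusted p = 0.748). The second probe set of Rpl7l1 read 1031, 1295 and 934 against 975, 994 and 1387, a log2 difference of 0.04 ± 0.18 (adjusted p = 0.900). When the probe sets of a gene were averaged, Rpl7 fell to 0.36 (adjusted p = 0.129) and Rpl7l1 to 0.36 (adjusted p = 0.136), neither past the threshold. The calls of these 2 genes with arginine thus belong to their brightest probe sets. Without arginine the averaged values passed, at 0.51 (adjusted p = 0.0313) for Rpl7 and 0.57 (adjusted p = 0.0205) for Rpl7l1. The second probe sets by themselves did not pass there either. They differed by 0.18 ± 0.26 (adjusted p = 0.611) for Rpl7 and 0.19 ± 0.18 (adjusted p = 0.437) for Rpl7l1. For Rpl14, a 60S protein, the dim second probe set did not pass the filter and was not tested. It read 70.2 to 83.8 in normal and 115.5 to 199.6 in tumor cells with arginine, while the bright one differed by −0.14 ± 0.15 (adjusted p = 0.518). Which transcripts the dimmer probe sets read was not tested.

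Rps24, a 40S protein whose gene is spliced into several forms, also had probe sets that disagreed. Its second probe set read 223, 210 and 300 in normal cells with arginine and 210, 210 and 308 without. In tumor cells it read 274 and 317 in experiment 1, with and without arginine, but 59.5 and 49.7 in experiment 2 and 55.9 and 62.7 in experiment 3. Tumor experiment 1 thus lay near the normal cells, while the other 4 tumor arrays lay below their arrays' filter thresholds of 146 to 166, where a signal gives no exact fold. The bright Rps24 probe set was also highest there, at 12034 and 14956, against 8398 to 10074 on the other 4 tumor arrays. Over all tested probe sets, both arrays of tumor experiment 1 lay at least 4-fold above the other tumor arrays for 8 and below for 0. The log2 difference of the second Rps24 probe set between the cell lines was −1.31 ± 0.66 with arginine and did not pass the test (adjusted p = 0.142).

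**Figure D3:**
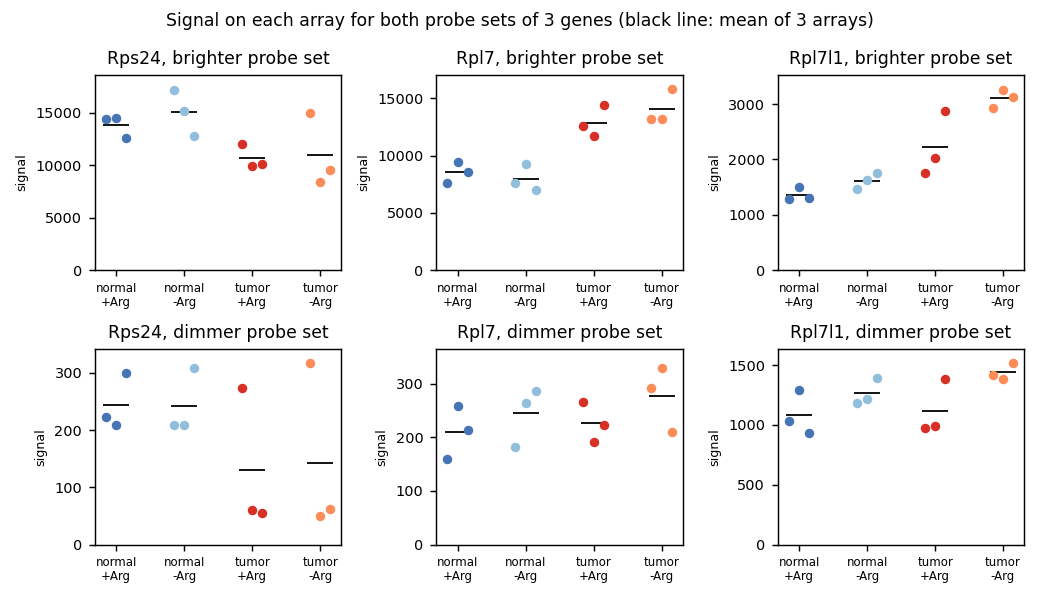
Signal on each array (y axis, linear scale from 0) in the 4 groups (x axis) for the brighter and the dimmer probe set of Rps24, Rpl7 and Rpl7l1. Points are arrays in the order of experiments 1 to 3 and the black line is the mean. The dimmer Rps24 probe set is at 274 and 317 in tumor experiment 1 and between 49.7 and 62.7 on the other tumor arrays.

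Removal of arginine for 18 hours changed no ribosomal protein gene past the threshold in the fit with 1 mean per group. None of 41 members was called in normal cells, in tumor cells, or in the difference between these responses, by limma with Benjamini-Hochberg adjustment. The background was 0.164%, 1.91% and 0% of all tested probe sets, so few calls were made anywhere. At an unadjusted p under 0.05, 0 members were found in normal cells, 5 in tumor cells, all of them higher, and 0 in the difference. The shares of all probe sets, in either direction, were 9.44%, 15.3% and 5.64%. In tumor cells, 634 of all 9745 tested probe sets were higher and 857 lower at that p. A plain linear model also called none.

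In tumor cells most members read above 0. Their median log2 change without arginine was 0.19 in tumor cells, with 36 of 41 above 0, and 0.07 in normal cells, with 28 above 0. The medians of all tested probe sets were −0.05 and −0.04. In tumor cells 27 of 41 members were higher without arginine in all 3 experiments and 1 was lower in all 3, against 21.3% and 28.6% of all tested probe sets. In normal cells the counts were 7 and 3, against 17.1% and 23.2%. The median difference between the responses was 0.16, but 0.05 (23 of 41 above 0) after quantile normalization. It was 0.03 without the arginine-deficient array of normal experiment 3, 0.26 without the arginine-sufficient array of tumor experiment 3, and between these without any other array. In tumor cells the 12 small-subunit genes had a median change of 0.24 (none below 0) and the 27 large-subunit genes 0.18. Members with a TOP tract at the start had a median of 0.19 and those with another start 0.21.

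**Figure D4:**
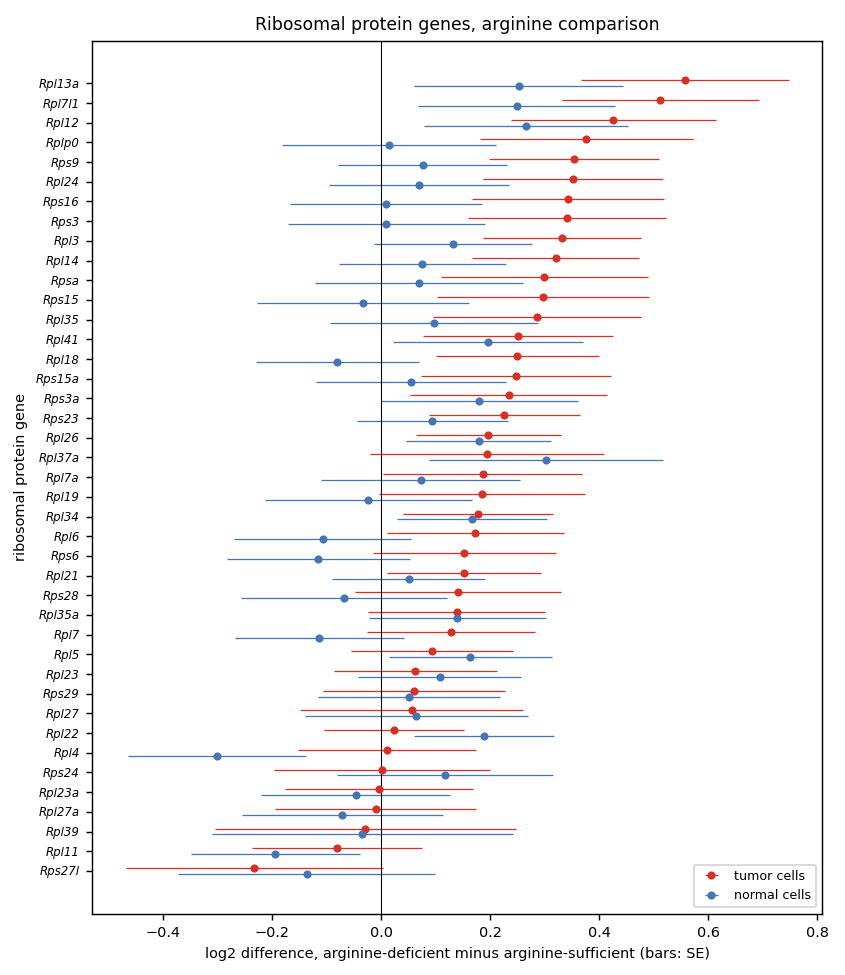
Log2 difference between arginine-deficient and arginine-sufficient cells (x axis, bars give the standard error, n = 3 arrays per group) for the 41 tested ribosomal protein genes (y axis), in tumor (red) and normal cells (blue). Most red points lie to the right of 0, and none of the differences passed the adjusted threshold in the plotted fit without the experiment block.

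The members' ratios within single experiments leaned mostly one way, with 7 to 10 of 41 on the other side of 0 in each. In tumor cells the median member ratio was 0.17, 0.25 and 0.16 on the log2 scale in experiments 1, 2 and 3, a mean of 0.20 ± 0.05 (SD, n = 3). In normal cells it was 0.20, 0.12 and −0.14, a mean of 0.06 ± 0.18. In normal experiment 3, 32 of 41 members were lower without arginine, opposite to the others. After quantile normalization that experiment read 0.05 (26 above 0 and 14 below), beside 0.10 in normal experiment 1 and −0.01 in normal experiment 2. Leaving out normal experiment 1 took the normal median to −0.01, and leaving out the arginine-deficient array of normal experiment 3 took it to 0.19.

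The bright end of each array moved in the same direction. The 99th percentile of the signals, with ribosomal protein probe sets set aside, went from 6521 to 7131, from 6785 to 7170 and from 6542 to 6195 in normal experiments 1, 2 and 3. In tumor cells it went from 6259 to 6724, from 6762 to 7392 and from 7406 to 8007. Quantile normalization, which gives all arrays the same distribution of signals, reduced the members' median to 0.04 in tumor cells (27 above 0) and left 0.04 in normal cells. Median centring raised it to 0.27 and 0.16. In tumor cells, the median thus moved with the scaling by more than its SD between experiments, and in normal cells by less. RNA quality was read from Gapdh, as its 3′ over its 5′ control probe set. This ratio lay between 0.998 and 1.38, and the arginine-deficient culture had the higher value in 6 of 6 experiments. Its part in these values was not tested.

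**Figure D5:**
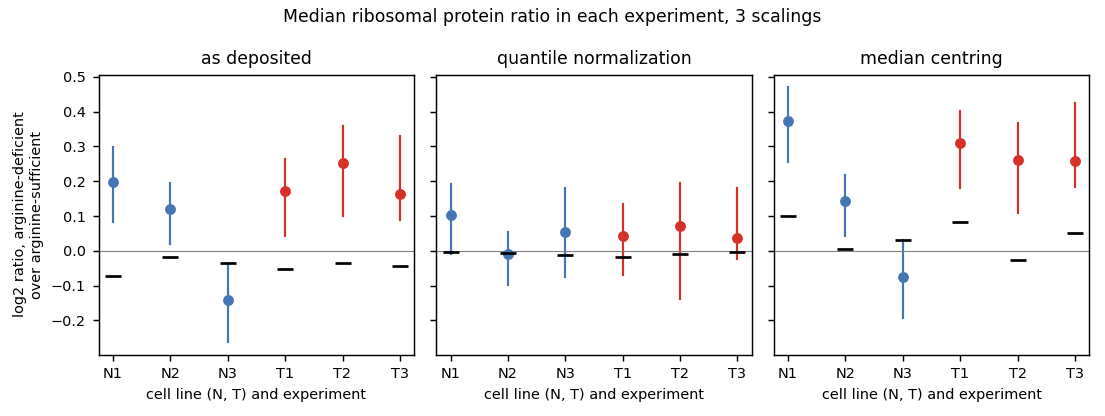
Median log2 ratio of arginine-deficient over arginine-sufficient signal (y axis) for the 41 members in each experiment (x axis, N1 to N3 normal cells in blue, T1 to T3 tumor cells in red), under 3 scalings. Vertical lines span the quartiles over members and black dashes give the median of all tested probe sets. The 3 tumor medians lie between 0.16 and 0.25 as deposited and between 0.04 and 0.07 after quantile normalization.

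The arrays of an experiment were paired, and with the experiment as a block 3 members rose in tumor cells without arginine and none fell. The background of that fit in tumor cells was 4.79% of probe sets higher and 6.18% lower, 11% in all. The blocked fit called 0 members in normal cells and 0 in the difference between responses, against 2.41% and 0.0513% of all probe sets. Rpl12, part of the base of the ribosomal stalk, had signals of 10611, 11398 and 16661 with arginine in experiments 1, 2 and 3 and 15115, 16049 and 20137 without. Its 3 ratios were 0.51, 0.49 and 0.27 on the log2 scale, and its change was 0.43 ± 0.12 (adjusted p = 0.0363) in the blocked fit, against an adjusted p of 0.293 without the block. It was higher without arginine in each experiment. After quantile normalization it was the only member called in the blocked fit, at 0.32 (adjusted p = 0.0268).

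Rpl13a, a 60S protein that can also silence translation of inflammatory transcripts, had signals of 8764, 10661 and 9875 with arginine and 12444, 13660 and 17288 without in tumor cells. The groups did not overlap, and the change was 0.56 ± 0.15 in the blocked fit (adjusted p = 0.0388) and had an adjusted p of 0.166 without the block. Rpl7l1 changed by 0.51 ± 0.14 in tumor cells (adjusted p = 0.0386 with the block and 0.178 without), from the signals given above. Its second probe set changed by 0.38 ± 0.18 in the fit without the block (adjusted p = 0.336). Normal cells gave Rpl12 signals of 13971, 13110 and 14114 with arginine and 19424, 16791 and 13759 without, higher in experiments 1 and 2 only. Their Rpl13a signals were 7147, 10946 and 11441 with arginine and 12259, 10102 and 12196 without. In normal cells these 3 genes had changes of 0.27 ± 0.19 (Rpl12), 0.25 ± 0.19 (Rpl13a) and 0.25 ± 0.18 (Rpl7l1), none past the threshold in either fit. The tumor and normal changes of these genes did not differ past the threshold.

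The largest values in the other direction were small. In normal cells they belonged to Rpl4, a 60S protein that lines the exit tunnel, with signals of 10780, 12163 and 9959 with arginine and 8898, 10549 and 7426 without. Rpl4 was lower without arginine in all 3 experiments, by −0.30 ± 0.16 (adjusted p = 0.605), and read 0.01 ± 0.16 in tumor cells. Rpl11 was next at −0.20 ± 0.16 in normal and −0.08 ± 0.16 in tumor cells, and Rps27l was at −0.14 ± 0.24 and −0.23 ± 0.24, respectively. Rpl39, a very short 60S protein, had a change of −0.03 ± 0.28 in tumor cells, which was 0.04 after quantile normalization. At the upper end in normal cells, Rpl37a had a change of 0.30 ± 0.21 (adjusted p = 0.715).

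In the difference between the responses, tumor minus normal, the highest values were Rplp0 at 0.36 ± 0.28, Rps16 at 0.33 ± 0.25 and Rps3 at 0.33 ± 0.26. Rplp0 signals with arginine were 17186, 15785 and 16729 in normal and 13172, 16351 and 20432 in tumor cells. In arginine-deficient medium they were 19084, 18665 and 13113 in normal and 17903, 20612 and 26082 in tumor cells. Rplp0 was thus higher without arginine in all 3 tumor experiments, and lower in normal experiment 3. Rps16 signals in tumor cells went from 15108 to 17282, from 14752 to 20460 and from 19645 to 25232. The 40S protein Rps3, which also acts in DNA repair, went from 12075 to 13592, from 12447 to 17343 and from 16650 to 21548. Rps16 and Rps3 changed by 0.01 ± 0.18 each in normal cells. The lowest values were Rpl22 at −0.17 ± 0.18, Rps24 at −0.12 ± 0.28 and Rpl37a at −0.11 ± 0.30, and the adjusted p of these 6 genes was 0.968 or higher.

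Rps6, Rpl5 and Rpsa, which were followed whatever their values, gave changes of −0.12 ± 0.17, 0.16 ± 0.15 and 0.07 ± 0.19 without arginine in normal cells. In tumor cells they gave 0.15 ± 0.17, 0.09 ± 0.15 and 0.30 ± 0.19. The 3 probe sets of Rpsa, which has many processed copies in the genome, read 0.30, 0.56 and 0.41 in tumor cells and none passed (adjusted p at least 0.141). A further 33 probe sets carry several symbols, among them a ribosomal protein gene, and cannot be given to a single gene. None of them was called for arginine, except 1 lower in normal cells in the blocked fit after quantile normalization. Their median change was 0.19 in tumor cells (31 of 33 above 0) and 0.04 in normal cells. With arginine their median difference between tumor and normal cells was −0.17, with 0 called higher and 1 lower.

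Other genes of translation were read beside the members from the same fit. Of 7 genes with elongation factor names, which share the TOP tract with ribosomal protein genes in large part, none was called for arginine. In tumor cells their median change was 0.20, with 0.08 in normal ones. Of 33 initiation factors, 1 rose in tumor cells without arginine (Eif2b3, a subunit of the exchange factor for eIF2, by 1.13, adjusted p = 0.0207), with a median of 0.16. Of 43 tested genes of ribosome assembly and RNA polymerase I, 1 rose in tumor cells (Nop14, mean signal from 222 to 446, adjusted p = 0.029), with a median of 0.39 and 38 above 0, and none in normal cells, with a median of 0.04. Of 17 listed partners with TOP tracts, 10 are among these factors. The other 7 had none called and a median of 0.18 in tumor cells and −0.04 in normal ones. The 71 mitochondrial ribosomal protein genes had none called and a median of −0.03 in tumor cells. Of all 9745 tested probe sets, 94 were called higher and 92 lower in tumor cells without arginine. The medians of these lists were read on the deposited scaling only. Between tumor and normal cells with arginine, 7 assembly genes were higher and 2 lower, and 16 mitochondrial ribosomal protein genes were higher and 2 lower, beside the 16.4% and 18.1% of all probe sets.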

How the data were processed

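Total RNA from 12 cultures was hybridized to RAE230A arrays. The deposited values are linear signal intensities from Microarray Suite 5.0. The authors had brought every array to a common trimmed mean (500.1 to 500.2 after trimming 2% at each end). The array has 15923 probe sets, 57 of them controls, 12777 with 1 gene symbol and 311 with several. Precision is limited by the number of arrays.

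Signals under 1 (9 to 24 per array) were set to 1 and log2 was taken. The 9745 probe sets in the highest 54% of signals on at least 3 of 12 arrays were fitted in limma 3.58.1 (R 4.3.3) as 4 group means, with eBayes and its trend on intensity (8 residual degrees of freedom). P-values were adjusted by Benjamini-Hochberg over all of these probe sets, at a threshold of 0.05. The 5 comparisons were arginine-deficient minus arginine-sufficient in each line, the difference between them, and tumor minus normal in each medium. The members and gene lists were chosen with earlier results of these data known. Named members were the 3 with the largest change in each direction for each arginine comparison, up to 5 in each direction past the threshold between the cell lines with arginine, and Rps6, Rpl5, Rpl11, Rplp0 and Rpsa. The disagreeing probe sets were added after their values were seen.

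Same-numbered arrays came from the same experiment by the study's methods and by consecutive sample names in the run records. With group means removed, their deviations correlated at 0.43, 0.42 and 0.38 in normal cells and at 0.56, 0.04 and 0.42 in tumor cells. Between different experiments the correlations ran from −0.28 to −0.16 in normal and from −0.54 to 0.28 in tumor cells. The value of 0.28 was between the arginine-deficient array of tumor experiment 2 and the arginine-sufficient array of tumor experiment 3. The pairing of tumor experiment 2 thus rests on the methods and names. The blocked fit has 4 residual degrees of freedom. Of the 44 member symbols, 42 matched RefSeq by gene ID and 2 were not found. On data simulated from these arrays the script's calls were checked against the known changes. Alternatives covered the filter, an offset of 16, quantile normalization, median centring, a fit without the trend, ordinary least squares (the plain linear model), blocks for experiment, scan day and chip lot, single lines, averaged or restricted probe sets, and leaving out arrays or experiments. Figures used matplotlib 3.10.9. Protein sequences were not used here.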

Additional observations from a re-analysis of the deposited data

How the results depend on the processing

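In normal cells and in the difference between the responses, the count of members past the threshold was 0 in every alternative run. In tumor cells it was 3 with the experiment block, 1 with the block on quantile-normalized signals, and 0 in the others. The tumor median of 0.19 became 0.040 after quantile normalization, with or without the block, and 0.27 after median centring. Leaving out single arrays gave medians of 0.13 to 0.29. Between the cell lines with arginine, the 7 calls became 4 after median centring, in the plain linear model and without both arrays of tumor experiment 3. They became 3 without those of normal experiment 1, and single arrays left 4 to 7. In that order, these 4 fits called 1930, 1442, 1202 and 1372 of all probe sets higher. They called 1464, 1477, 1335 and 1384 lower, and the main fit called 1603 higher and 1766 lower. Without arginine, the 7 calls became 15 (8 higher and 7 lower) after quantile normalization. Of all 9745 probe sets, that fit called 2062 higher and 1949 lower, against 1900 and 2064 in the main fit. The 7 calls became 11 without tumor experiment 1, where 1830 probe sets were higher and 2220 lower. Single arrays left 6 to 11.

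Signs turned only for changes that had not passed the test. For Rps27l the arginine change in normal cells was 0.016 with a chip lot block, −0.32 to 0.084 without single arrays and 0.0044 without normal experiment 3, and in tumor cells 0.0029 without tumor experiment 2. For Rpl13a in normal cells it was −0.012 without normal experiment 1. Rpl39 in tumor cells gave 0.040 after quantile normalization, with or without the block, 0.051 after median centring, 0.12 without tumor experiment 3, and −0.14 to 0.12 without single arrays. Rpl11 in tumor cells gave −0.18 to 0.042 without single arrays. In the difference between responses, Rpl37a gave 0.033 with a scan day block, 0.00628 with a chip lot block, 0.049, 0.040 and 0.10 without tumor experiments 1 and 3 and normal experiment 2, and −0.27 to 0.090 without single arrays. Rps24 gave 0.055 on its second probe set, 0.0020 without tumor experiment 2, and −0.36 to 0.054 without single arrays. The cause was not tested. Alternatives with both arrays of an experiment left out, and the block with quantile normalization, were added after seeing the data. Probe sets below an array's filter threshold give no exact fold.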
